A study of Mus musculus with 54 samples.

Results

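R-spondins are secreted proteins that raise the response of a cell to Wnt ligands. They bind the LGR4, LGR5 and LGR6 receptors and take the ubiquitin ligases RNF43 and ZNRF3 off the cell surface, so that fewer Wnt receptors are degraded. In the intestine they come mainly from mesenchymal cells under the epithelium and in the muscle layers, and they are known as factors that intestinal stem cells need. The 3 members described here, Rspo1, Rspo2 and Rspo3, were taken by name from 17393 gene IDs listed in any of 4 expression tables of the fetal mouse small intestine. The fourth family gene, Rspo4, was not listed in these tables.

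The question was which sorted mesenchymal population carried each R-spondin transcript in each region. Cells of untreated C57Bl/6J embryos at embryonic day 16.5 (E16.5) were sorted without CD31+ and CD45+ cells. The sorts were epithelium (EpCAM) and mesenchyme that was PDGFRA high with medium CD29 (PDGFRA-HIGH), medium for both (PDGFRA-MED), or PDGFRA medium with high CD29 (CD29-HIGH). CD29 is integrin beta 1, and PDGFRA is a platelet-derived growth factor receptor of fibroblasts and subepithelial cells. Proximal, mid and distal cells came from the 2 end sections and the middle section of an intestine divided in 5, and each group had 3 libraries. The series holds 54 libraries in 20 groups, and the others were E13.5 EpCAM cells and E16.5 Top.CFP reporter-labelled EpCAM cells. The dams of the Top.CFP embryos had received the porcupine inhibitor LGK974, which blocks Wnt secretion, or vehicle. Rspo1, Rspo2 and Rspo3 were not listed in the tables of those libraries and were not analysed there.

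Library totals over the whole series ran from 15072991 to 26658039 recovered reads. Among the untreated E16.5 libraries the lowest total was 17491906 reads, in distal EpCAM replicate 1. Pdgfra RNA followed the sort names with 1 exception, and the RNA for CD29 was not among the markers read. Pdgfra averaged 652 to 1032 RPKM in PDGFRA-HIGH and 69.5 to 92.8 RPKM in PDGFRA-MED, but only 2.87 to 6.56 RPKM in CD29-HIGH, whose label gives medium PDGFRA. The summed level of 6 smooth muscle markers was 16152 to 23413 RPKM in CD29-HIGH, against group means of at most 343 RPKM in the other sorts. All 6 had reads in every library. In bulk samples such as these, fewer cells of a type and less RNA per cell cannot be told apart, and the number of cells each sort holds in the tissue was not measured. A main source is therefore the sort with the highest transcript level.

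By the files' gene IDs Rspo1 is 192199, Rspo2 is 239405 and Rspo3 is 72780. In mm10 the genes lie at chr4:124986401-125009102, chr15:43020788-43171594 and chr10:29453106-29535867. The most alike stretch of 60 coding bases is shown to let the family be compared directly. It was found in the mm10 genome with GENCODE transcripts matched to RefSeq, and capitals mark the 36 bases that are the same in all 3 genes. It lies on the plus strand at chr4:125007161-125007220 in exon 4 of Rspo1, on the minus strand at chr15:43078169-43078228 in exon 4 of Rspo2, and on the minus strand at chr10:29504657-29504716 in exon 3 of Rspo3.
Rspo1: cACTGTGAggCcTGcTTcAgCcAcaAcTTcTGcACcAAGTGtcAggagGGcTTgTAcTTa
Rspo2: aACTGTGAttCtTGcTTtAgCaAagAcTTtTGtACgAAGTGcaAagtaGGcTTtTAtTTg
Rspo3: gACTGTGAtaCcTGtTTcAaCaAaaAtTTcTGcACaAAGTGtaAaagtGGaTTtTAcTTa
Rspo1 and Rspo3 were identical at 44 of the 60 positions, Rspo2 and Rspo3 at 42, and Rspo1 and Rspo2 at 41. Over the whole transcripts, the longest run shared without a mismatch was 14 bases, between Rspo2 and Rspo3.

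CD29-HIGH was the main source of Rspo3 and Rspo1 in all 3 regions, and PDGFRA-MED was the main source of Rspo2. This order held in 3 of 3 replicate numbers in every region. PDGFRA-HIGH had the lowest Rspo1 and Rspo3 of the mesenchymal sorts, and CD29-HIGH had the lowest Rspo2. Levels below are reads per kilobase of gene scaled to library size (RPKM), set on 1 scale for the 36 untreated E16.5 libraries. Differences are on the log2(RPKM + 0.5) scale, which understates changes of low genes. A difference was called when limma's test for a log2 change beyond 0.5 gave an adjusted p under 0.05 over all genes tested. Overlap or its absence between libraries is a description only, since the share of all genes without overlap is not given.

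**Figure D1:**
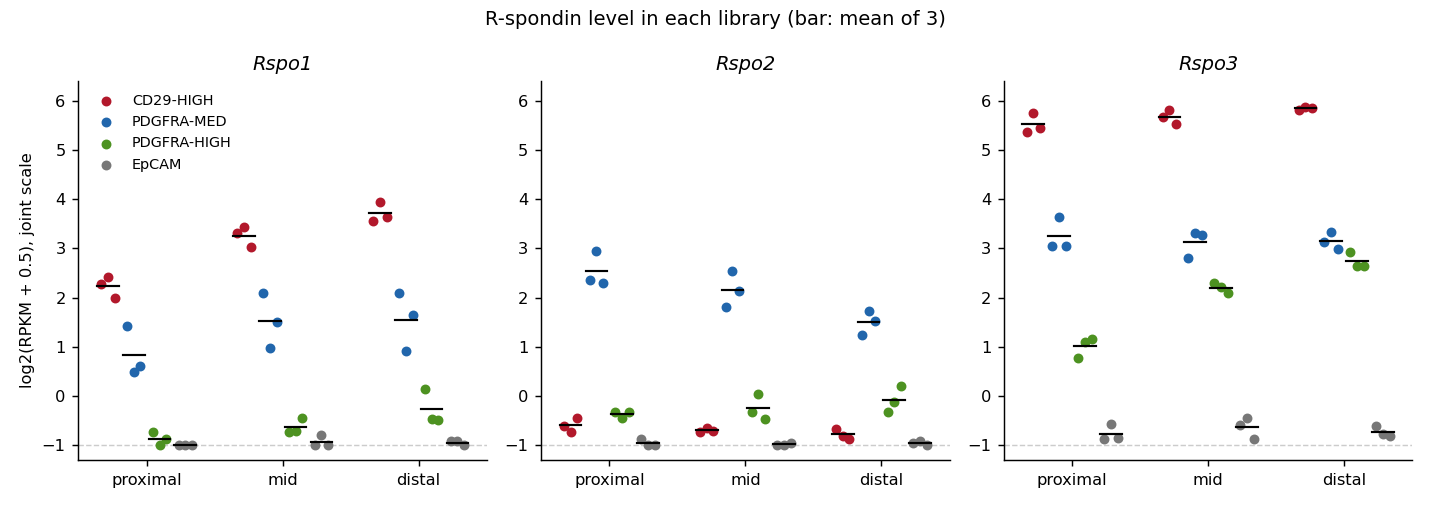
Level of each R-spondin in every library, as log2(RPKM + 0.5) on the joint scale, by region on the x axis and by sort in colour, with the mean of 3 libraries as a bar and a dashed line at 0 RPKM. In each region the red CD29-HIGH points lie above all others for Rspo1 and Rspo3, and the blue PDGFRA-MED points lie above all others for Rspo2.

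Rspo3 was the most abundant member in every mesenchymal group. In CD29-HIGH it was 40.8, 53.6 and 43.2 RPKM in the proximal libraries, 50.5, 56.0 and 45.6 RPKM in the mid libraries and 55.4, 58.2 and 57.6 RPKM in the distal libraries. In PDGFRA-MED it was 7.75, 11.9 and 7.80 RPKM proximally, 6.49, 9.37 and 9.16 RPKM in the mid region and 8.19, 9.51 and 7.38 RPKM distally. No CD29-HIGH library overlapped with any library of another sort. The difference of CD29-HIGH from PDGFRA-MED was 2.30 ± 0.112 (SE, n = 3 a group) proximally, 2.57 ± 0.112 in the mid region and 2.77 ± 0.112 distally, with limma adjusted p of 3.14e-09, 6.69e-10 and 2.6e-10. In mean level, CD29-HIGH held 5.02, 6.08 and 6.83 times the PDGFRA-MED mean. Of all genes tested, 13.3%, 12.1% and 11.2% were called higher in CD29-HIGH in these 3 comparisons.

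Rspo3 in PDGFRA-HIGH depended on the region. It was 1.22, 1.64 and 1.73 RPKM in the proximal libraries, 4.41, 4.12 and 3.74 RPKM in the mid libraries and 7.10, 5.77 and 5.74 RPKM in the distal libraries, and the 3 regions did not overlap. Against PDGFRA-MED it was lower by 2.23 ± 0.154 proximally (a log2 difference of -2.23, adjusted p = 3.84e-09) and the mid difference was -0.93 ± 0.154 (adjusted p = 0.0254). The distal difference of -0.40 (95% interval -0.72 to -0.08) did not pass. The mid call was lost without PDGFRA-HIGH replicate 2 or 3 or PDGFRA-MED replicate 2 or 3, with limma adjusted p up to 0.175. Of all genes tested, 12.4%, 11.5% and 9.38% were called lower in PDGFRA-HIGH.

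CD29-HIGH exceeded PDGFRA-HIGH for Rspo3 by 4.51 ± 0.132 proximally, 3.48 ± 0.132 in the mid region and 3.11 ± 0.132 distally, with adjusted p of 8.44e-20, 3.69e-17 and 6.57e-16. These differences were 30.0, 12.4 and 9.20 times in mean level. The background of genes called higher in CD29-HIGH was 17.7%, 16.2% and 14.2%. The genes called lower were 15.9%, 14.9% and 14.6%.

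Rspo1 had the same leading sort at lower levels. In CD29-HIGH it was 4.37, 4.84 and 3.47 RPKM in the proximal libraries, 9.45, 10.3 and 7.63 RPKM in the mid libraries and 11.2, 14.8 and 12.01 RPKM in the distal libraries. In PDGFRA-MED it was 2.17, 0.910 and 1.02 RPKM proximally, 3.77, 1.48 and 2.32 RPKM in the mid region and 3.74, 1.38 and 2.62 RPKM distally. Within a region no CD29-HIGH library overlapped with PDGFRA-MED. CD29-HIGH was higher by 1.40 ± 0.281 proximally (adjusted p = 0.0176), 1.76 ± 0.281 in the mid region (adjusted p = 0.00224) and 2.22 ± 0.281 distally (adjusted p = 0.000202). The proximal call was lost without CD29-HIGH replicate 2, PDGFRA-MED replicate 2 or PDGFRA-MED replicate 3, with limma adjusted p up to 0.0949.

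Rspo1 was close to the detection limit in PDGFRA-HIGH. The proximal libraries held 4, 0 and 2 reads, the mid libraries 4, 4 and 11 reads and the distal libraries 21, 9 and 8 reads. Every PDGFRA-HIGH library was below every PDGFRA-MED library of its region. The log2 differences of PDGFRA-HIGH from PDGFRA-MED were -1.74 ± 0.224 proximally, -2.18 ± 0.224 in the mid region and -1.83 ± 0.224 distally, with adjusted p of 7.63e-05, 1.55e-06 and 4.5e-05. Those of CD29-HIGH from PDGFRA-HIGH were 3.10, 3.89 and 3.99 (SE 0.230), with adjusted p of 7.71e-11, 3.35e-13 and 2.2e-13. In mean level, CD29-HIGH held 86.8, 62.1 and 36.8 times the PDGFRA-HIGH mean in the proximal, mid and distal regions. PDGFRA-MED held 28.1, 17.1 and 7.47 times that mean. These ratios fell from proximal to distal, while the log2 differences were no smaller in size distally than proximally. The regional trend of these Rspo1 differences thus depended on the scale, and the ratios rest on the few PDGFRA-HIGH reads.

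Smooth muscle markers were read beside Rspo1 in both PDGFRA sorts. In PDGFRA-HIGH, Rspo1 averaged 1.15%, 1.61% and 2.72% of its CD29-HIGH level in the proximal, mid and distal regions, while the 6 smooth muscle markers together stood at 0.672%, 1.59% and 1.93% of theirs. In the distal PDGFRA-HIGH libraries the summed smooth muscle level was 560, 225 and 149.8 RPKM and Rspo1 was 0.598, 0.225 and 0.212 RPKM, and the 3 libraries had the same order for both. That order was shared in 1 of 3 regions, as it was for the epithelium, fibroblast and pericyte lists. In PDGFRA-MED the smooth muscle mean was 1.02% to 1.70% of that in CD29-HIGH, and Rspo1 was 20.3% to 32.4%. The part of these cells in the Rspo1 level of PDGFRA-HIGH or PDGFRA-MED was not tested.

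In PDGFRA-MED, Rspo1 was highest in replicate 1, intermediate in replicate 3 and lowest in replicate 2 in 3 of 3 regions. The summed level of 5 mesothelium markers had the same order: 11, 4.33 and 1.38 RPKM proximally, 15.9, 7.92 and 2.17 RPKM in the mid region and 14.6, 8.09 and 3.81 RPKM distally, for replicates 1, 3 and 2. The epithelium, enteric neuron and glia, and blood endothelium lists also kept that order in all 3 regions. All 5 mesothelium markers were listed, and Msln had 0 reads in at least 1 proximal PDGFRA-MED library. The list is not particular to mesothelium here, since its sum was 91.5 to 133 RPKM in EpCAM, most of it Krt7 (group means of 91.9 to 119.5 RPKM). The mesothelium sum was 0.152 to 1.54 RPKM in PDGFRA-HIGH and 0.847 to 2.27 RPKM in CD29-HIGH, the sort with the most Rspo1. The part of these cells in the spread of Rspo1 was not tested.

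Rspo2 went the other way. In PDGFRA-MED it was 4.59, 7.24 and 4.43 RPKM in the proximal libraries, 3.004, 5.334 and 3.89 RPKM in the mid libraries and 1.87, 2.79 and 2.39 RPKM in the distal libraries. PDGFRA-HIGH ranged from 0.223 to 0.655 RPKM and CD29-HIGH from 0.0469 to 0.233 RPKM over all 9 libraries each. No PDGFRA-MED library overlapped with either. The log2 differences of CD29-HIGH from PDGFRA-MED were -3.12 ± 0.176 proximally, -2.84 ± 0.176 in the mid region and -2.25 ± 0.176 distally, with adjusted p of 6.28e-09, 2.39e-08 and 7.01e-07. PDGFRA-MED held 33.0, 35.1 and 28.1 times the CD29-HIGH mean, and 10.2%, 9.60% and 9.18% of all genes were called lower in CD29-HIGH.

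The log2 differences of PDGFRA-HIGH from PDGFRA-MED for Rspo2 were -2.92, -2.44 and -1.59 (SE 0.171) in the proximal, mid and distal regions, with adjusted p of 1.14e-10, 3.9e-09 and 1.87e-05. PDGFRA-HIGH and CD29-HIGH were both low. Their log2 differences, CD29-HIGH minus PDGFRA-HIGH, were -0.23, -0.44 and -0.70 (SE 0.161) and none passed. The distal difference rests on 10, 5 and 4 reads in CD29-HIGH against 19, 30 and 45 reads in PDGFRA-HIGH. It passed at -2.35 with limma-voom on the recovered reads (adjusted p = 0.00319) and at -1.57 with a pseudocount of 0.1 (adjusted p = 0.00135).

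**Figure D2:**
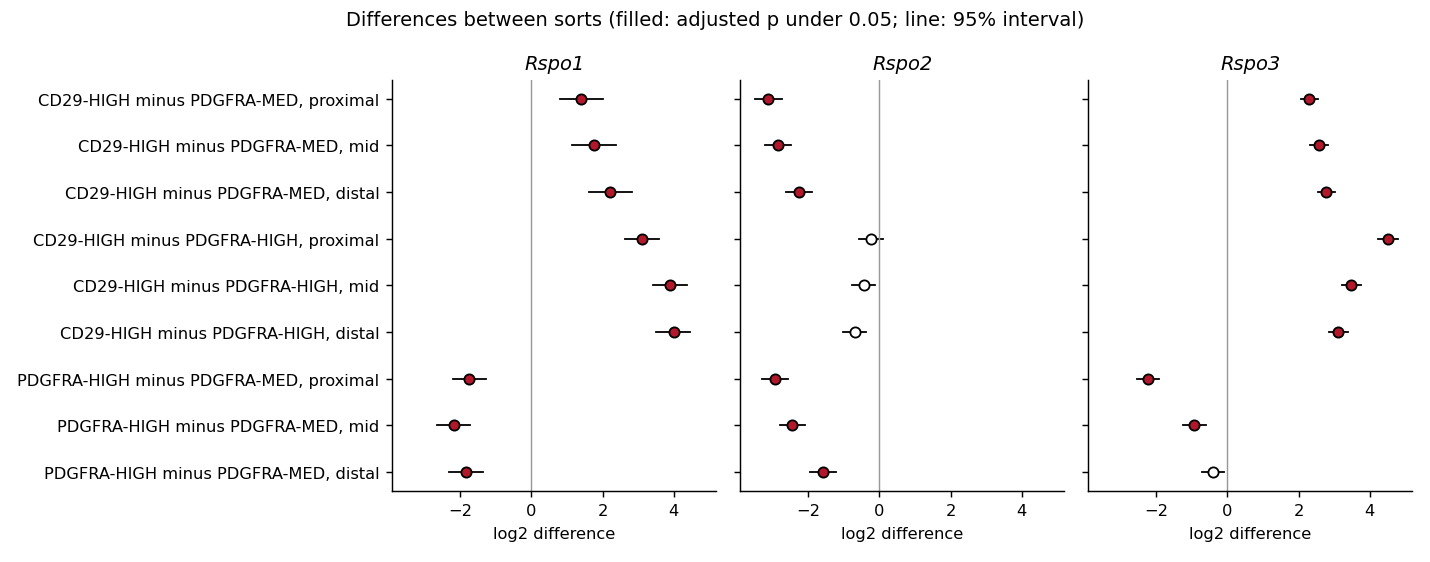
Log2 differences (x axis) between mesenchymal sorts in each region (1 line a comparison) for each gene, with 95% intervals as lines and filled points where the adjusted p was under 0.05. Rspo3 differences between CD29-HIGH and PDGFRA-HIGH run from 4.51 to 3.11 and those of Rspo2 from -0.23 to -0.70.

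Ordered by level, the 3 CD29-HIGH regions of Rspo3 came first, where mid overlapped with proximal and with distal but proximal and distal did not overlap, then the 3 PDGFRA-MED regions, which also overlapped each other, and mid PDGFRA-MED overlapped with distal PDGFRA-HIGH. For Rspo1 the proximal CD29-HIGH libraries overlapped with distal PDGFRA-MED, and the PDGFRA-MED regions overlapped each other. For Rspo2 proximal and mid PDGFRA-MED overlapped, mid and distal PDGFRA-MED did not, and proximal PDGFRA-HIGH overlapped with proximal CD29-HIGH.

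Summed over the 3 genes, CD29-HIGH held 50.3 ± 7.25 RPKM (SD, n = 3) proximally, 59.9 ± 6.53 RPKM in the mid region and 69.9 ± 3.15 RPKM distally. PDGFRA-MED held 15.9 ± 3.60, 14.9 ± 1.504 and 13.3 ± 0.784 RPKM, and PDGFRA-HIGH held 1.85 ± 0.222, 4.58 ± 0.337 and 7.01 ± 0.865 RPKM. These sums were given no test. The make-up differed by sort. Rspo3 was 81.8% to 91.2% of the sum in CD29-HIGH, 82.1% to 89.2% in PDGFRA-HIGH and 55.5% to 62.8% in PDGFRA-MED. Rspo2 was 33.7% of the PDGFRA-MED sum proximally and 17.7% distally, while Rspo1 was 9.08% and 19.4%.

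**Figure D3:**
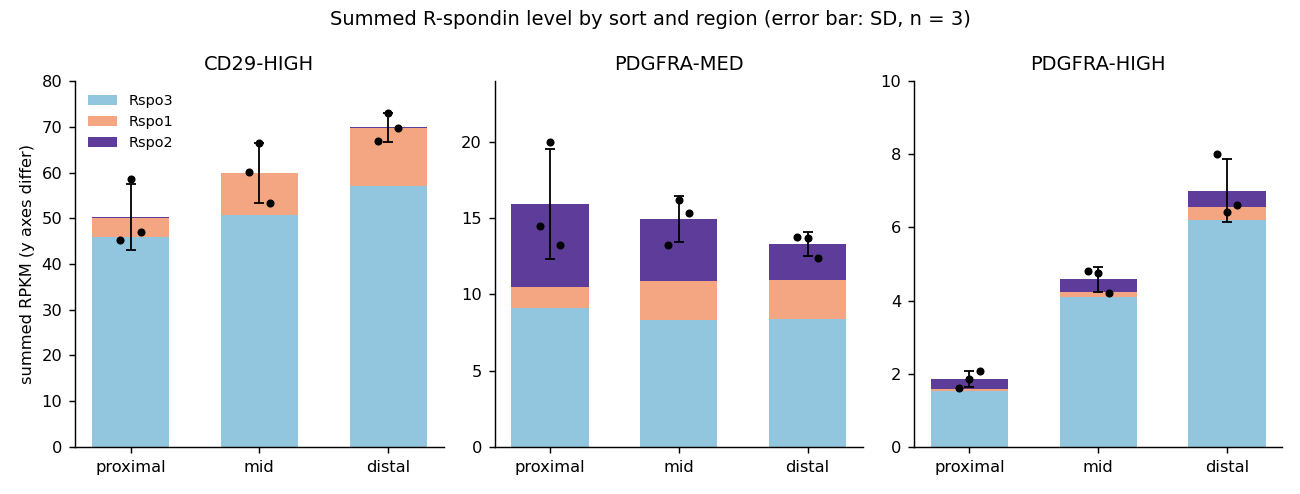
Summed RPKM of Rspo1, Rspo2 and Rspo3 in each mesenchymal sort and region, stacked by gene, with the SD of the sum as an error bar and 1 point a library. The y axes differ, from 80 RPKM for CD29-HIGH to 10 RPKM for PDGFRA-HIGH.

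Regional change within a sort was tested next. Rspo3 rose from the proximal to the distal region in PDGFRA-HIGH by 1.71 ± 0.154 (adjusted p = 1.18e-05), which was 4.06 times in mean level and was seen in 3 of 3 same-numbered pairs. Of all genes tested, 1.17% were called higher distally in that sort. The mid libraries were higher than the proximal ones by 1.19 ± 0.154 (adjusted p = 0.0413), beside a background of 0.231% called higher. That call was lost in 6 of 7 other settings, 1 of them without the replicate block (adjusted p = 0.0799). It was also lost in 5 of 6 fits that left out a library, with limma adjusted p up to 0.42. The distal minus mid difference of 0.53 (95% interval 0.21 to 0.85) did not pass, and neither did any other member difference between mid and an end region. In either direction, 2.46%, 0.292% and 0.496% of all genes were called in PDGFRA-HIGH for distal minus proximal, mid minus proximal and distal minus mid. The last 2 of these gave 0.129% and 0.143% in PDGFRA-MED and 0.277% and 0.180% in CD29-HIGH.

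Rspo3 did not pass between regions in PDGFRA-MED or CD29-HIGH, where 0.869% and 2.26% of all genes were called between the distal and proximal regions. The distal minus proximal difference was -0.12 (95% interval -0.44 to 0.20) in PDGFRA-MED and 0.36 (95% interval 0.12 to 0.60) in CD29-HIGH. The change itself differed between sorts. In PDGFRA-HIGH it exceeded that in PDGFRA-MED by 1.83 ± 0.217 (adjusted p = 1.26e-05), and that in CD29-HIGH was lower than in PDGFRA-HIGH, with a difference of -1.41 ± 0.186 (adjusted p = 3.53e-06). Such changes that differed were called for 9.29% and 22.1% of all genes tested.

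Fibroblast marker levels also differed by region in PDGFRA-HIGH. The sum of 5 fibroblast markers was 1386 to 1505 RPKM proximally, 1347 to 1828 RPKM in the mid region and 2270 to 2427 RPKM distally, and Pdgfra had means of 1032 RPKM proximally and 652 RPKM distally. In PDGFRA-MED, the sort with the most of these markers, the sum was 4618 to 7499 RPKM. The smooth muscle sum in PDGFRA-HIGH was 136 to 191 RPKM proximally, 125 to 629 RPKM in the mid region and 149.8 to 560 RPKM distally. Their part in the rise of Rspo3 was not tested. The 3 distal PDGFRA-HIGH libraries held 12.4%, 10.1% and 10.1% of the CD29-HIGH Rspo3 mean at smooth muscle shares of 3.47%, 1.39% and 0.927%.

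Rspo2 had its highest level in proximal PDGFRA-MED. The distal mean was 0.433 of the proximal mean and the 2 regions did not overlap. The log2 difference of -1.06 ± 0.171 (95% interval -1.41 to -0.70) was in the same direction in 3 of 3 pairs but did not pass (adjusted p = 0.161). It passed with limma-voom on the recovered reads, at -1.20 (adjusted p = 0.00748). In PDGFRA-HIGH the distal minus proximal difference was 0.28 (95% interval -0.08 to 0.63), and the difference of these changes, 1.33 ± 0.242, passed (adjusted p = 0.00099). The same test of CD29-HIGH against PDGFRA-MED gave 0.86 ± 0.250 (adjusted p = 0.0436, with 9.37% of genes called). It was lost without the replicate block (adjusted p = 0.0813) and under limma-voom, where the value was 0.17.

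Markers of other cells also differed between these PDGFRA-MED regions. The summed level of the 3 listed blood markers of 4, nearly all of it the haemoglobin genes Hba-a1 and Hbb-bs, averaged 2433, 376 and 205 RPKM in the proximal, mid and distal regions. The proximal libraries held 1470, 332 and 5496 RPKM, so replicate 3 stood highest, and its Rspo2 was the lowest of the 3. Without proximal PDGFRA-MED replicate 3 the Rspo2 difference was -1.18 (adjusted p = 0.104). The epithelium sum averaged 22.9, 14.1 and 11.02 RPKM with overlap between regions, and that of 4 lymphatic endothelium markers 15.5, 13.9 and 9.88 RPKM. The part of these cells in the Rspo2 levels was not tested.

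Rspo1 in CD29-HIGH had a distal mean 3 times the proximal mean, without overlap between the 3 regions. The log2 difference of 1.51 ± 0.281 was in the same direction in 3 of 3 pairs and missed the threshold (adjusted p = 0.0691), beside 0.870% of genes called higher. It passed with limma-voom at 1.57 (adjusted p = 0.0397), with only those 2 groups in the fit (adjusted p = 0.000456) and without distal CD29-HIGH replicate 1 (adjusted p = 0.0301). In PDGFRA-MED the difference was 0.69 (95% interval 0.23 to 1.16) and in PDGFRA-HIGH 0.60 (95% interval 0.13 to 1.07), and neither passed. The PDGFRA-HIGH difference passed with limma-voom at 2.81 (adjusted p = 0.0398), on the 6 proximal and 38 distal reads in all. Marker sums of CD29-HIGH differed by region as well. Smooth muscle averaged 23413, 21546 and 16152 RPKM and 4 pericyte markers 146, 137 and 84.3 RPKM in the proximal, mid and distal regions, with the distal libraries below all others for both. The 3 markers of interstitial cells of Cajal averaged 39.4, 36.4 and 51.9 RPKM, and blood 230, 94.3 and 89.8 RPKM. The part of these cells in the Rspo1 levels was not tested.

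**Figure D4:**
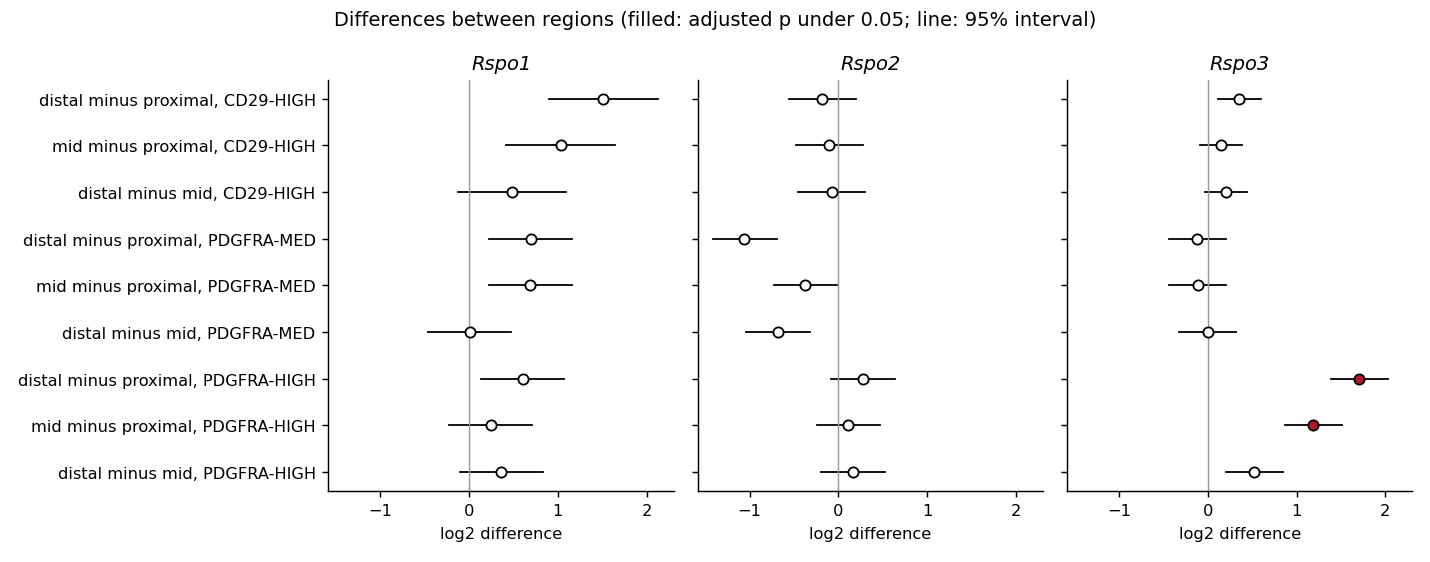
Log2 differences (x axis) between regions within each mesenchymal sort (1 line a comparison) for each gene, with 95% intervals as lines and filled points where the adjusted p was under 0.05. The filled points are Rspo3 in PDGFRA-HIGH, at 1.71 for distal minus proximal and 1.19 for mid minus proximal.

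In EpCAM libraries the R-spondins were nearly absent. Rspo1 had 0 reads in all 3 proximal libraries and at most 3 reads elsewhere, Rspo2 at most 3 reads and Rspo3 2 to 12 reads. With a floor of 3 reads a library, Rspo1 was at least 54.3-fold higher in proximal CD29-HIGH and at least 17.6-fold higher in proximal PDGFRA-MED than in proximal EpCAM. Rspo3 in CD29-HIGH was 517, 340 and 563 times the EpCAM mean in the proximal, mid and distal regions, with log2 differences of 6.30, 6.31 and 6.58 (SE 0.132) and adjusted p of 2.01e-24, 1.63e-24 and 6.77e-25. The background called higher than EpCAM was 25.7%, 26.3% and 25.3% for CD29-HIGH.

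All 3 genes passed above EpCAM in PDGFRA-MED in each region, with log2 differences from 1.87 to 4.05, beside 25.1%, 25.7% and 25.0% of all genes. In PDGFRA-HIGH, Rspo3 passed in each region, at 1.82, 2.86 and 3.49 (SE 0.154), beside 28.1%, 28.1% and 27.4%. Rspo2 passed there only in the distal region (0.88 ± 0.171, adjusted p = 0.0324), a call lost without distal EpCAM replicate 2 or 3 or distal PDGFRA-HIGH replicate 3, with limma adjusted p up to 0.215. In the proximal and mid regions Rspo2 passed with limma-voom, at 4.42 and 4.98 (adjusted p = 0.000129 and 3.67e-05). With a pseudocount of 0.1 it passed in both as well, at 1.76 and 2.07. Rspo1 in PDGFRA-HIGH passed in no region at this pseudocount. With limma-voom it passed in the mid (2.55, adjusted p = 0.0157) and distal regions (3.66, adjusted p = 0.000452). In CD29-HIGH, Rspo1 passed in each region and Rspo2 in none at this pseudocount. With limma-voom Rspo2 passed there proximally (3.61, adjusted p = 0.00124) and in the mid region (3.52, adjusted p = 0.00184).

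Over the 27 mesenchymal libraries, the genes whose level was most like that of each member were ranked by Pearson r among 12494 genes. These values are a description: the libraries share their sort, and groups set much of r. For Rspo3 they were Tacc2 (r = 0.976), Emilin3 (0.976), Sgcd (0.974), Itpkb (0.973) and Plcb4 (0.973). Sgcd codes for delta-sarcoglycan of muscle cells. For Rspo1 they were Ccnd1 (0.969), Slc4a4 (0.966), Lsm11 (0.965), Cep78 (0.962) and Kcna5 (0.962). Ccnd1, which codes for cyclin D1, ran from 0.686 to 6.47 RPKM in PDGFRA-HIGH, 4.25 to 20 RPKM in PDGFRA-MED and 22.1 to 55.0 RPKM in CD29-HIGH. For Rspo2 they were Shisa3 (0.980), Gdf6 (0.979), Tmem229a (0.979), Cxcl13 (0.977) and Dab2 (0.974). Cxcl13, a chemokine, was 88.5 to 292 RPKM in PDGFRA-MED and at most 5.74 RPKM in the other mesenchymal sorts. With Spearman's rho in place of r, 1 of the 5 genes stayed in the first 5 for Rspo1, and 0 of 5 for Rspo2 and Rspo3.

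The receptors were read in the same libraries. Lgr4 was highest in EpCAM, at 39.7 ± 1.46, 42.7 ± 3.61 and 44.9 ± 1.31 RPKM (SD, n = 3) in the proximal, mid and distal regions. It was 19.7 to 21.2 RPKM in CD29-HIGH and 6.52 to 6.69 RPKM in PDGFRA-MED as group means. Lgr5, the stem cell receptor, was 2.06 ± 0.596 RPKM in proximal and 5.79 ± 0.896 RPKM in distal EpCAM in the authors' scaling. It was at most 0.19 RPKM as a group mean in PDGFRA-HIGH and PDGFRA-MED and was not listed in the table with CD29-HIGH. Lgr6 was instead highest in CD29-HIGH, at 1.19 to 1.89 RPKM, against at most 0.0226 RPKM in EpCAM as group means, although its proximal libraries overlapped with PDGFRA-MED, at 0.677 to 1.39 RPKM. Rnf43 was 9.63 to 16.8 RPKM in EpCAM and at most 0.493 RPKM in mesenchyme as group means, whereas Znrf3 was 3 to 7.27 RPKM across all sorts and highest in CD29-HIGH.

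Of the 8 genes in the receptor and effector list, 6 were tested between CD29-HIGH and PDGFRA-MED. In the proximal region 3 rose and 0 fell, in the mid region 4 rose and 1 fell, and in the distal region 4 rose and 0 fell. Of all genes tested, 13.3%, 12.1% and 11.2% were called higher and 10.2%, 9.60% and 9.18% lower. The gene that fell was Lrp5, with a mid difference of -0.75 ± 0.0740 (adjusted p = 0.0104). This call was lost without the replicate block (limma adjusted p = 0.0726), and without mid CD29-HIGH replicate 2 (0.0796) or mid PDGFRA-MED replicate 1 (0.0647). The distal median of the tested list members was 1.13, beside 0.0485 over all genes. Lgr4 was higher in CD29-HIGH by 1.65 ± 0.0490 proximally and 1.62 ± 0.0490 distally (adjusted p = 3.01e-11 and 4.66e-11). Znrf3 was higher by 0.98 ± 0.0631 and 1.14 ± 0.0631 (adjusted p = 1.02e-05 and 5.18e-07). Lgr6 passed in the mid (0.94, adjusted p = 0.0387) and distal regions (1.24 ± 0.163, adjusted p = 0.00149). The mid call for Lgr6 was lost without CD29-HIGH replicate 1 or any 1 of the PDGFRA-MED replicates, with limma adjusted p up to 0.207, and with a pseudocount of 1 (adjusted p = 0.197). Sdc4, which codes for the heparan sulphate proteoglycan syndecan 4, was higher by 1.43 and 1.11 (SE 0.0681, adjusted p = 1.67e-08 and 2.27e-06).

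Between PDGFRA-HIGH and PDGFRA-MED, 7 of the 8 were tested, beside 11.7%, 11.2% and 9.67% of all genes called higher in PDGFRA-HIGH. In the proximal region 3 rose (Sdc4, Lrp5 and Lgr4), and in the mid and distal regions 1 rose, Sdc4, by 2.04 and 1.67 (SE 0.0910). The proximal Lgr4 call was lost without proximal PDGFRA-HIGH replicate 3 (limma adjusted p = 0.091) or proximal PDGFRA-MED replicate 3 (0.0627). Lgr4 in PDGFRA-HIGH had a mean of 11.5 RPKM proximally and 6.48 RPKM distally, opposite in direction to Rspo3. Its distal minus proximal difference was -0.81 ± 0.0903 (adjusted p = 0.0499). It was lost in 5 of 7 other settings, 1 of them without the replicate block (adjusted p = 0.0715), and without distal replicate 1 or 2 or proximal replicate 2 or 3, with limma adjusted p up to 0.469. Between CD29-HIGH and PDGFRA-HIGH, 7 of the 8 were tested. Proximally 4 rose and 1 fell, in the mid region 3 rose and 2 fell, and distally 3 rose and 1 fell. All genes tested gave 17.7%, 16.2% and 14.2% higher and 15.9%, 14.9% and 14.6% lower. The proximal Rnf43 rise (0.493 against 0.0503 RPKM) was lost with a pseudocount of 1 and without CD29-HIGH replicate 1. With only the groups compared, Znrf3 was lost proximally (limma adjusted p = 0.096) and in the mid region (0.174). Mid Znrf3 was also lost with a pseudocount of 1 (0.115) and in fits without a library. Proximal Sdc4 was not called but passed as lower with limma-voom (0.0271) and quantile normalization (0.000688). In the distal region Lgr4, Lgr6 and Znrf3 rose by 1.61, 2.01 and 0.84 (adjusted p = 1.72e-12, 2.37e-11 and 1.13e-05). Lrp5, a Wnt co-receptor, fell there, with a difference of -1.26 (adjusted p = 4.04e-10).

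**Figure D5:**
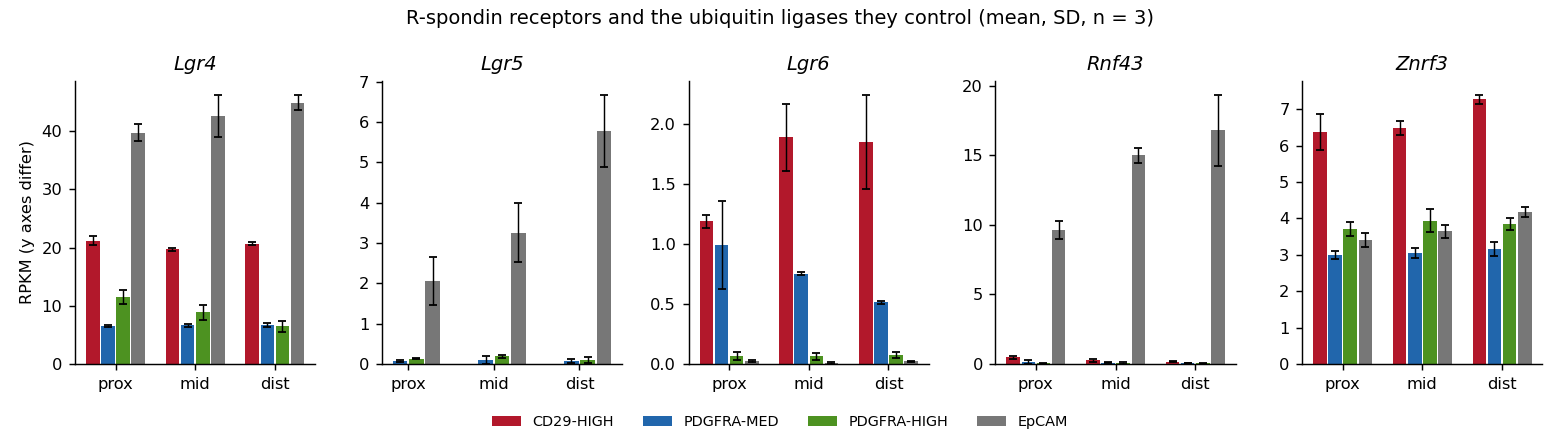
Mean RPKM with SD (n = 3) of the receptor genes Lgr4, Lgr5 and Lgr6 and the ubiquitin ligase genes Rnf43 and Znrf3 by region and sort, on y axes that differ. Lgr5 is on the authors' scale and has no CD29-HIGH bar; its EpCAM means run from 2.06 to 5.79 RPKM, while Lgr6 and Znrf3 are highest in CD29-HIGH.

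In EpCAM, distal against proximal, Lgr5 rose by 1.32 ± 0.169 (adjusted p = 0.00125), as 1 of the 7 list members tested, and 0 fell, beside 1.92% of genes called higher and 5.89% called in either direction. The Lgr5 call was lost with a pseudocount of 0.1 (adjusted p = 0.057). Of the 10 Wnt feedback and target genes 6 were tested, and Axin2, a general Wnt target, rose by 1.22 ± 0.122 (adjusted p = 0.000151). The members themselves gave EpCAM differences of 0.05, 0.00076 and 0.04.

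Of the 19 Wnt ligands, 5 were tested between CD29-HIGH and PDGFRA-MED. Proximally 1 rose and 3 fell, and in the mid and distal regions 2 rose and 3 fell, beside 13.3%, 12.1% and 11.2% of all genes called higher and 10.2%, 9.60% and 9.18% called lower. The largest distal changes were Wnt2b (-3.53 ± 0.183), Wnt5b (-2.11 ± 0.139) and Wnt4 (-1.47 ± 0.196). Wnt2b, a canonical ligand, was 7.98 ± 1.01 RPKM in distal PDGFRA-MED in the authors' scaling, so it shared its leading sort with Rspo2 rather than with Rspo3. Between PDGFRA-HIGH and PDGFRA-MED, 7 ligands were tested: 4 rose and 2 fell proximally, 3 rose and 2 fell in the mid region, and 1 rose and 3 fell distally, where Wnt2b (-3.68), Wnt4 (-1.79) and Wnt11 (1.15) changed most. All genes tested gave 11.7%, 11.2% and 9.67% higher and 12.4%, 11.5% and 9.38% lower there. The mid Wnt11 call was lost with a pseudocount of 1 (limma adjusted p = 0.275) and with only the groups compared (0.121). It was also lost without mid replicate 1 or 2 of either sort. The mid Wnt16 call was lost with a pseudocount of 1 (0.061). Proximal Wnt5b was lost with a pseudocount of 0.1 (0.0662) and without PDGFRA-HIGH replicate 2 or PDGFRA-MED replicate 1. Distal Wnt11 was lost with only the groups compared (0.0606). Between CD29-HIGH and PDGFRA-HIGH, 6 were tested: 1 rose and 4 fell proximally, 1 rose and 3 fell in the mid region, and 1 rose and 2 fell distally, namely Wnt9a (2.40), Wnt5b (-2.84) and Wnt11 (-1.80). The background for that pair of sorts was 17.7%, 16.2% and 14.2% higher and 15.9%, 14.9% and 14.6% lower. Its proximal Wnt11 call was lost with a pseudocount of 1 (limma adjusted p = 0.489) and with only the groups compared (0.169). Leaving out proximal replicate 1 or 2 of either sort also lost it.

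Among the feedback and target genes, Nkd1, an inhibitor that Wnt signals induce, was in the authors' scaling 62.8 ± 7.13 RPKM in distal CD29-HIGH and 8.25 ± 0.179 RPKM in distal PDGFRA-MED, a difference of 2.85 ± 0.0626 (adjusted p = 1.84e-13). Tnfrsf19 also rose there, by 2.48 ± 0.146, and of 5 genes tested 2 rose and 0 fell in each region, beside 13.3%, 12.1% and 11.2% of all genes called higher and 10.2%, 9.60% and 9.18% called lower. In distal PDGFRA-HIGH against PDGFRA-MED, Tnfrsf19 (3.75 ± 0.209) and Tcf7, a transcription factor of the pathway (2.21 ± 0.0988), rose, and of 6 tested 2 rose and 0 fell in each region, beside 11.7%, 11.2% and 9.67% called higher and 12.4%, 11.5% and 9.38% called lower. Axin2 was not called there, at 3.41 against 6.22 RPKM on the joint scale. It was called lower with limma-voom (-0.882, adjusted p = 0.0288), a pseudocount of 0.1 (-0.86, adjusted p = 0.0327) and quantile normalization (-0.84, adjusted p = 0.0263). Leaving out distal PDGFRA-HIGH replicate 1 also gave that call (limma adjusted p = 0.0452). The distal median of the tested list members was -0.158, beside 0 over all genes. In distal CD29-HIGH against PDGFRA-HIGH 2 of 5 rose and 2 fell, beside 14.2% called higher and 14.6% called lower, led by Nkd1 (3.04), Tcf7 (-1.86) and Tnfrsf19 (-1.32).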

How the data were processed

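The authors sorted cells, made SMARTer Stranded Total RNA-Seq Pico libraries, aligned reads to mm10 with Rsubread, counted them by strand over RefSeq genes with featureCounts and filtered low genes. The deposited tables hold RPKM (reads per kilobase of gene, scaled to library size). Gene lengths in bases are deposited beside them. Whole reads were recovered from the deposited RPKM (100% within 0.01 read of a whole number), and the 36 untreated E16.5 libraries were put on 1 scale by the median of ratios over 13777 genes; joint values were 0.958 to 1.00 times those deposited. PDGFRA-MED columns repeated in the table with CD29-HIGH held identical reads and were counted once; joint values were 1.002 to 1.02 times that copy.

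Tests were run in R 4.3.3 with limma 3.58.1, applied to log2(RPKM + 0.5) of each deposited table, or of the joint table for CD29-HIGH against PDGFRA-HIGH or EpCAM, with genes at 1 RPKM or more in at least 3 libraries (14732, 13334 and 14288 genes), trended and robust variances, the replicate number as a block, a minimum log2 change of 0.5 and Benjamini-Hochberg adjustment over all genes. Differences of changes were tested without a minimum. The study's model gives the mother as the block; same-numbered deviations correlated at a mean r of 0.137 over 108 pairs and 0.239 over 45 pairs, in the 2 tables. The members and lists were chosen with earlier results of these data known. Named genes are the members, the 5 genes most like each, receptor list members, and up to 3 ligand and feedback genes of largest change. Some further ligand and feedback genes are named for the fits that changed their calls. Alternatives covered the pseudocount, filter, block, groups fitted, normalization, limma-voom and each library left out. Only the replicate number tells litters apart, so p-values measure the spread between these libraries. The fit was tested on simulated data.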

Additional observations from a re-analysis of the deposited data

Results flagged for a closer look

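Regional change differed between sorts for Rspo3 and Rspo2 by a direct test of the difference. For Rspo3 the distal minus proximal change in PDGFRA-HIGH exceeded that in PDGFRA-MED by 1.83 ± 0.217 (limma adjusted p = 1.26e-05), and that in CD29-HIGH minus that in PDGFRA-HIGH was -1.41 ± 0.186 (adjusted p = 3.53e-06). Both kept their call under every alternative run. For Rspo2 the change in PDGFRA-HIGH minus that in PDGFRA-MED was 1.33 ± 0.242 (adjusted p = 0.00099). In CD29-HIGH minus PDGFRA-MED it was 0.864 ± 0.250 (adjusted p = 0.0436), a call that 4 of 7 other settings and 9 of 12 fits without a library did not keep. The comparisons with PDGFRA-MED share its libraries. Such calls were not rare. Of all genes tested, 9.29% were called for PDGFRA-HIGH against PDGFRA-MED and 22.1% for CD29-HIGH against PDGFRA-HIGH. For CD29-HIGH against PDGFRA-MED it was 9.37%.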

How the results depend on the processing

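The 90 R-spondin differences gave 1224 values under the alternatives. Of these, 1162 were counted as the same, 37 lost a call, 25 gained one and 0 reversed a called direction. Values called in neither fit were counted as the same even where their sign changed. The Rspo1 change of PDGFRA-HIGH against PDGFRA-MED, for example, was -0.0929 as reported and ran from -0.221 to 1.92 over 7 other settings. With limma-voom on the recovered reads, calls were gained by Rspo1 distal minus proximal in CD29-HIGH (1.57) and PDGFRA-HIGH (2.81), Rspo2 distal minus proximal in PDGFRA-MED (-1.2), distal Rspo2 CD29-HIGH minus PDGFRA-HIGH (-2.35), and against EpCAM by Rspo2 in CD29-HIGH (3.61 proximal, 3.52 mid) and PDGFRA-HIGH (4.42 proximal, 4.98 mid) and Rspo1 in PDGFRA-HIGH (2.55 mid, 3.66 distal). It lost Rspo3 mid minus proximal in PDGFRA-HIGH (1.42) and the Rspo2 change of CD29-HIGH against PDGFRA-MED (0.174). A pseudocount of 0.1 lost these last 2 (1.37 and 0.655) and mid Rspo3 PDGFRA-HIGH minus PDGFRA-MED (-0.993). It gained distal Rspo2 CD29-HIGH minus PDGFRA-HIGH (-1.57), proximal Rspo2 CD29-HIGH minus EpCAM (1.19), and PDGFRA-HIGH minus EpCAM for Rspo2 (1.76 proximal, 2.07 mid) and Rspo1 (1.82 distal). A pseudocount of 1 lost Rspo3 mid minus proximal in PDGFRA-HIGH (1.02) and distal Rspo2 PDGFRA-HIGH minus EpCAM (0.52), and gained the Rspo1 change of CD29-HIGH against PDGFRA-HIGH (1.04). Quantile normalization gained the latter (0.958) and lost Rspo3 mid minus proximal in PDGFRA-HIGH (1.15). The sign of that Rspo1 change depended on the setting. Over 7 other settings it ran from -1.23, which was not called, to 1.04, and proximal PDGFRA-HIGH held only 4, 0 and 2 Rspo1 reads. With only the groups compared, Rspo1 in CD29-HIGH passed distally (1.51) and in the mid region (1.03) over proximal, as did the Rspo1 change of CD29-HIGH against PDGFRA-HIGH (0.884), while mid Rspo3 PDGFRA-HIGH minus PDGFRA-MED (-0.931), Rspo3 mid minus proximal in PDGFRA-HIGH (1.19) and the Rspo2 change of CD29-HIGH against PDGFRA-MED (0.864) were lost. Without the replicate block the last 2 were lost at unchanged values (1.19 and 0.864), and no other R-spondin call changed. The cause of these changes was not tested.

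Leaving out each library gave 1.2 to 1.58 for proximal Rspo1 CD29-HIGH minus PDGFRA-MED, 1.29 to 1.77 for Rspo1 distal minus proximal in CD29-HIGH, -1.09 to -0.803 for mid Rspo3 PDGFRA-HIGH minus PDGFRA-MED, 1.08 to 1.31 for Rspo3 mid minus proximal in PDGFRA-HIGH and 0.706 to 0.987 for distal Rspo2 PDGFRA-HIGH minus EpCAM. For changes of CD29-HIGH it gave 0.692 to 0.987 (Rspo2) and 0.349 to 0.566 (Rspo3) against PDGFRA-MED, and 0.708 to 1.06 (Rspo1) against PDGFRA-HIGH. Chosen after seeing the data were the authors' scaling, under which 35 of 36 group means moved by less than 1 SD, and the alternatives for receptor and Wnt genes, of whose 4459 values 50 lost and 28 gained a call. The planned comparison of LGK974 without vehicle was not run, since the R-spondins were not listed there. Low read numbers limit Rspo1 and Rspo2 in PDGFRA-HIGH and EpCAM and Rspo2 in CD29-HIGH.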
